A study of Mus musculus with 13 samples.

Results

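The 84 genes described here encode the proteins of the cytosolic ribosome, with their close paralogs. They were chosen by name: every gene with a gene body entry in the deposited table whose symbol is Rpl or Rps followed by p0, p1, p2 or a number, with at most 1 letter a, x or l and 1 further digit. The rule gave 88 symbols in the RefSeq annotation of GRCm38.p6, and 84 of them had an entry among the 20689 gene bodies of the table. They divide into 52 genes of the large (60S) subunit and 32 of the small (40S) subunit. Rpl10l, Rps12l1, Rps3a2 and Rps3a3 were not analysed here. The rule itself uses names and no measured value.

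The study profiled chromatin (ChIP-seq) of cultured neural stem and progenitor cells of the mouse, isolated at E14.5 and grown as floating spheres to passage 5, day 3. Its 13 libraries were, per the labels, 1 KAT7 and 3 H3K14ac libraries from Kat7lox/loxNesCreT/+ cells, in which Kat7 is deleted, 3 KAT7 and 4 H3K14ac libraries from Kat7+/+NesCreT/+ cells, in which it is intact, and 2 IgG libraries. Cells of both genotypes carried the Cre transgene under nestin regulatory sequence, and each KAT7 or H3K14ac library came from the culture of 1 animal. The values used here are 1 merged KAT7 column and 1 merged H3K14ac column. The sources used here do not say which libraries or genotypes entered a column, so no comparison of genotypes, no comparison with IgG and no error between animals could be had. Every interval below is a 95% interval for counting error alone, and no p-value is given.

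Each cytosolic ribosome holds a single copy of nearly every one of these proteins, so their genes are transcribed strongly and in proportion in growing cells, neural progenitors included. Their mRNAs begin with a run of pyrimidines at the 5′ end, through which translation is tied to growth signals, and many of the genes carry small nucleolar RNA (snoRNA) genes in their introns. KAT7, also called HBO1, is a histone acetyltransferase that works in complexes with scaffold proteins of the BRPF or JADE families, and lysine 14 of histone H3 is one of its substrates.

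The authors' marks of high expression were frequent among these genes. The table marks 5.00% of all genes as Top in expression, and 45 of the 84 ribosomal protein genes (53.6%) carried that mark, 26 of the large and 19 of the small subunit. The remaining 39 were marked Other and none was marked Bottom. Of the 7 neural progenitor markers looked up, Fabp7, Nes, Sox2 and Vim were also marked Top, while none of the markers of neurons, oligodendrocytes, astrocytes, microglia, endothelium, muscle or liver was. The marks describe the expression data the authors used, not these ChIP libraries.

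The start sites are shown first, since the levels below are read at them. RefSeq (GRCm38.p6) gave a promoter of 250 bases before to 50 bases after the start for 62 of the 84 genes, and for 52 of these its start lay within 5 bases of the start in the table. The sequences below run 5′ to 3′ on the coding strand from 100 bases before the start to the first 20 transcribed bases. Capitals mark, on either strand, CCGGAA (the core of ETS sites), ATGGCG (the core of YY1 sites), CACGTG (the E-box), TATAAA (the TATA sequence), CTTTCC (a pyrimidine hexamer) or GCCATCTT (a longer YY1 form), and a run of at least 7 pyrimidines that begins within 10 bases of the start. The first 4 genes had a higher RPKM of H3K14ac than of KAT7 at their start, and the next 3 the reverse. The last 2 are paralogs of Rpl39 and Rpl3 that had no CpG island at their start in the table.
Rpl10a: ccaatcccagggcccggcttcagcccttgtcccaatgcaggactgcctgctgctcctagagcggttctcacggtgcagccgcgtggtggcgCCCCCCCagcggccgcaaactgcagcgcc
Rpl5: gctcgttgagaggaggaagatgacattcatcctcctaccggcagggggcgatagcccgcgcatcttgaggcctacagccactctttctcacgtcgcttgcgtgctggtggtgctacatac
Rpl26: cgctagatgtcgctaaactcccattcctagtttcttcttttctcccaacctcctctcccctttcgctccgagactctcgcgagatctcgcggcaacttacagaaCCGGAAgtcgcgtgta
Rpl41: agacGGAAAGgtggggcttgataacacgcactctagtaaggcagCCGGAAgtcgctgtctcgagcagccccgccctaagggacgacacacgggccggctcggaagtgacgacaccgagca
Rpl12: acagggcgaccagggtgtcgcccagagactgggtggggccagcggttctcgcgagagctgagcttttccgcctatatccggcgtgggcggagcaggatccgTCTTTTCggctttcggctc
Rpl14: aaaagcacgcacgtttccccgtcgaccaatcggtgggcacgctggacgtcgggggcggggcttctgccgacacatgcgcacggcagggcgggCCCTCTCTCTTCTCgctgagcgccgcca
Rps3a1: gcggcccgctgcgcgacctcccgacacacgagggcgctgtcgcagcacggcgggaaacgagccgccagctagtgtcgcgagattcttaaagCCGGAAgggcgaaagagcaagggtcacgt
Rpl39l: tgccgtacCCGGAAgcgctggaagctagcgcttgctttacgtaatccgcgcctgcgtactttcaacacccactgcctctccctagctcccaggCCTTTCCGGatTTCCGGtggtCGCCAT
Rpl3l: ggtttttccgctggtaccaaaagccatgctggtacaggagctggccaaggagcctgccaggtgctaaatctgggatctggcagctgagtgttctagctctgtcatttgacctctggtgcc
In the same order these windows lie at chr17:28328371-28328490, plus strand, chr5:107900428-107900547, plus strand, chr11:68901466-68901585, plus strand, chr10:128549149-128549268, minus strand, chr2:32961612-32961731, plus strand, chr9:120571417-120571536, plus strand, chr3:86142649-86142768, minus strand, chr16:10170128-10170247, plus strand and chr17:24727726-24727845, plus strand.

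A run of at least 7 pyrimidines beginning within 10 bases of the start, on either side of it, was found in 24 of the 52 promoters (46.2%). The shares were 15.5% of 11465 genes with a matched start and 16.4% of other genes marked Top. Such a run can lie before the transcript, so these are not counts of mRNAs with a 5′ pyrimidine run. In Rpl14 the run was 14 bases long and in Rpl12, Rpl10a and Rpl39l it was 7. Those of Rpl10a and Rpl39l end before the first transcribed base. The hexamer CCGGAA stood in 50% of the ribosomal protein promoters, against 22.1% of all genes, 35.3% of other Top genes and 32.1% of all genes with an island. ATGGCG stood in 25%, against 12.8% of all genes, 19.5% of other Top genes and 18.7% of genes with an island. The longer GCCATCTT, which can share bases with it, stood in 9.62%, against 3.67%, 7.41% and 5.18% of the same sets. CTTTCC stood in 44.2%, against 26.1% of all genes, 28.1% of other Top genes and 24.2% of genes with an island. CACGTG (7.69% against 8.72%) and TATAAA (9.62% against 10.0%) were about as frequent as in all genes. Between the subunits CTTTCC was in 52.9% of 34 large and 27.8% of 18 small subunit promoters, and CACGTG in 4 large and 0 small subunit promoters.

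Island levels were not higher where the pyrimidine run or most of the motifs were present. Median island levels were 0.578 RPKM for KAT7 and 0.631 RPKM for H3K14ac in the 18 promoters with the pyrimidine run and a measured island, and 0.667 and 0.773 RPKM in the 17 without it. For CCGGAA they were 0.604 and 0.644 RPKM with it (17 genes) and 0.677 and 0.699 RPKM without it (18 genes). The same held for both medians with ATGGCG and with CTTTCC and with GCCATCTT, whereas with CACGTG the KAT7 median was 0.658 RPKM in 4 genes and 0.604 RPKM in the 31 without it. These are medians of few genes. RPKM is the read count scaled to the length of the region and to the reads of the column.

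A CpG island containing the start site was listed for 71 of the 84 genes (84.5%), against 10150 of all 20689 genes (49.1%). The 13 genes without one were Rpl11, Rpl23a, Rpl24, Rpl27, Rpl32l, Rpl38, Rpl39l, Rpl3l, Rpl4, Rpl6l, Rpl7, Rpl7l1 and Rps27a. In the RefSeq promoter the median CpG count was 11 in the 7 of these genes with a matched start and 22 in the 45 with an island. Of the 71 islands, 56 were measured as single islands on autosomes (32 large, 24 small subunit), 11 also held the start of another gene and 4 lay on the X chromosome. These 56 islands ran from a median of 172.5 bases before to 455.5 bases after the start, close to the 178 and 421 bases over all 7926 islands measured this way.

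At the start sites both signals were higher in ribosomal protein genes than in other genes, H3K14ac more so than KAT7. Summed over the 56 islands the KAT7 level was 0.630 RPKM (0.609 to 0.653), against 0.493 RPKM over the 7870 islands of other genes, a ratio of 1.28 (1.24 to 1.32). The H3K14ac level was 0.717 RPKM (0.695 to 0.740), against 0.467 RPKM in other genes, a ratio of 1.54 (1.49 to 1.58). Most of the genes stood above the centre of the table: 47 of 56 lay above the median of all islands for KAT7 and 49 of 56 for H3K14ac, where 50% of all islands do by construction. Whether more of the cells or more alleles carried the protein or the mark, or each carried more of it, cannot be told apart in these bulk samples.

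Counted by size, 14 of the 56 genes (9 large, 5 small) had a KAT7 level at least 1.5 times the median of all islands, 25% of them against 7.19% of all islands. For H3K14ac the count was 33 of 56 (19 large, 14 small), 58.9% against 13.8%. None fell to 1/1.5 of the median or less, where 10% of all islands did for KAT7 and 17.9% for H3K14ac. At a fold of 2, 1 gene was past it for KAT7 (background 0.593%) and 10 for H3K14ac (background 2.9%), and none fell to 1/2 of the median (background 2.59% and 7.53%).

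Because so many ribosomal protein genes are marked Top, the comparison was repeated within a mark. The 32 Top ribosomal protein genes had 1.07 times (1.02 to 1.13) the KAT7 level and 1.18 times (1.13 to 1.24) the H3K14ac level of 593 other Top genes. The 24 marked Other had 1.34 times (1.27 to 1.41) the KAT7 level and 1.63 times (1.55 to 1.70) the H3K14ac level of 7175 other genes with that mark. Among ribosomal protein genes the mark itself did not separate high from low: Top genes stood at 0.940 times (0.877 to 1.01) the KAT7 level and 0.927 times (0.870 to 0.988) the H3K14ac level of those marked Other. Each gene was also divided by the median of other genes of the same mark and length band. By that measure the median gene had 1.14 times their median KAT7 level and 1.36 times their median H3K14ac level, and 41 and 47 of 56 genes were above it.

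The balance of the 2 signals was shifted towards H3K14ac. The KAT7 to H3K14ac ratio over the islands was 0.879 (0.838 to 0.921) in ribosomal protein genes and 1.05 (1.05 to 1.06) in other genes. Within the Top mark the gap was smaller, 0.885 (0.829 to 0.944) in 32 ribosomal protein genes and 0.976 (0.962 to 0.990) in 593 other genes. This ratio sets the RPKM of 2 antibodies side by side and does not compare amounts of protein and mark. KAT7 was below H3K14ac in 35 of the 56 (62.5%), against 42.3% of all islands. A ratio of at least 1.5 was seen in 1 gene, Rpl14, against 19.1% of all islands, and a ratio of at most 1/1.5 in 7 genes (12.5%), against 9.51%. Taking counting error into account, the ratio's interval lay wholly below 1 in 8 genes (14.3%), against 8.02% of all islands. Rpl10a, Rpl17, Rpl19, Rpl21, Rpl26 and Rps16 were among them. It lay wholly above 1 in none, against 14.7%. At a fold of 2 the ratio was at 1/2 or below in Rpl17 and Rpl21 (background 1.96%) and at 2 or above in none (background 6.7%).

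**Figure D1:**
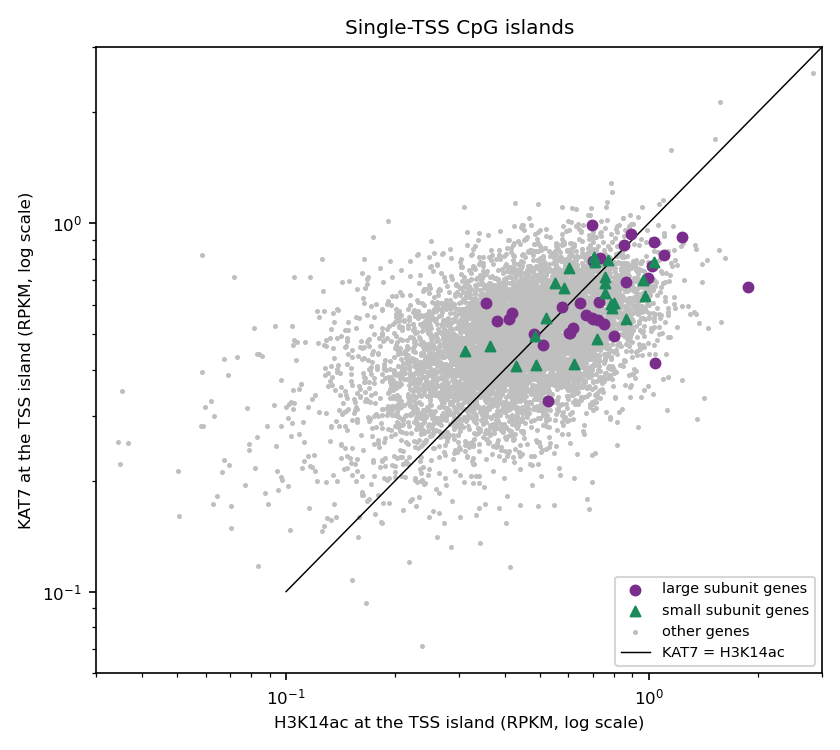
KAT7 level (vertical) against H3K14ac level (horizontal) at single-start CpG islands, both in RPKM on log scales, for large subunit genes (circles), small subunit genes (triangles) and other genes (grey), with a line at equal levels; islands without H3K14ac reads cannot be drawn. The coloured points sit in the upper right of the grey cloud, mostly above the medians of all islands of 0.487 RPKM for KAT7 and 0.456 RPKM for H3K14ac, with Rpl17 farthest to the right at 1.87 RPKM of H3K14ac.

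Single genes spanned a wider range in H3K14ac (0.311 to 1.87 RPKM) than in KAT7 (0.330 to 0.985 RPKM). KAT7 was highest at Rpl12, a protein of the stalk base, with 0.985 RPKM (0.774 to 1.23) from 75 reads, and at Rpl8, Rpl10a and Rpl32 with 0.931, 0.916 and 0.888 RPKM. It was lowest at Rpl41, which encodes the shortest of the ribosomal proteins, with 0.330 RPKM (0.188 to 0.535) from 16 reads, and low at Rps12 and Rps27 with 0.409 and 0.412 RPKM.

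H3K14ac was highest at Rpl17, a protein at the polypeptide exit tunnel, with 1.87 RPKM (1.59 to 2.20) from 151 reads, far above the next gene. Rpl10a, a protein of the L1 stalk, followed with 1.23 RPKM (1.05 to 1.44), then Rpl5 with 1.10 RPKM and Rpl21 with 1.04 RPKM. The lowest were Rps3a1 with 0.311 RPKM (0.195 to 0.471), Rpl14 with 0.355 RPKM, Rps4l with 0.366 RPKM and Rpl3 with 0.381 RPKM, all below the median of all islands.

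The ratio was lowest at Rpl17, 0.357 (0.255 to 0.493), and Rpl21, 0.400 (0.265 to 0.593), where KAT7 stood at 0.668 and 0.417 RPKM, in the middle and the lower part of its own range. Rpl26 followed with 0.615 (0.385 to 0.968) and Rpl41 with 0.626 (0.315 to 1.20). These 4 low ratios thus came with ordinary or low KAT7 and, at Rpl17, Rpl21 and Rpl26, with H3K14ac well above the median of all islands. It was highest at Rpl14, 1.71 (0.965 to 3.10), Rps3a1, 1.44 (0.804 to 2.62), Rpl3, 1.42 (0.804 to 2.56), and Rpl12, 1.42 (0.988 to 2.04). At Rpl14, Rps3a1 and Rpl3, a core protein near the peptidyl transferase centre, H3K14ac was low, whereas Rpl12 had the highest KAT7.

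**Figure D2:**
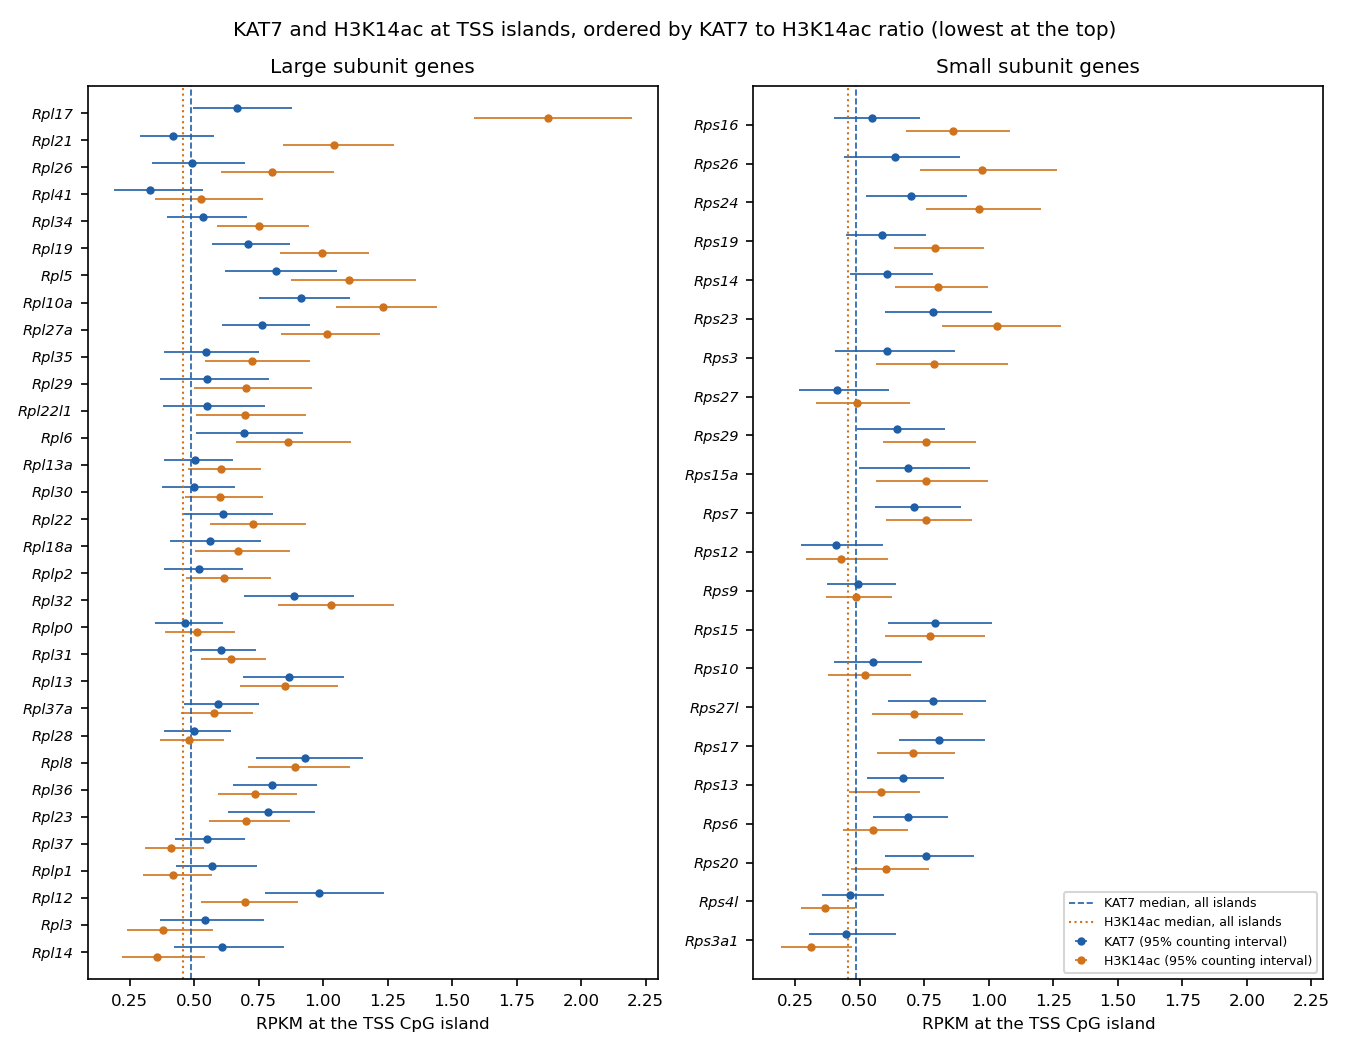
KAT7 and H3K14ac levels (RPKM, horizontal, with 95% counting intervals) at 54 of the measured start-site islands, large subunit genes on the left and small subunit genes on the right, with the lowest KAT7 to H3K14ac ratio at the top. H3K14ac exceeds KAT7 in the 33 genes of the upper rows, by most at Rpl17 and Rpl21, and the order turns round at the bottom with Rpl14 and Rps3a1.

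Taken by role, the 3 stalk proteins, which recruit translation factors, had plain levels at their start sites. Rplp0 had 0.467 RPKM of KAT7 and 0.511 RPKM of H3K14ac, Rplp1 had 0.571 and 0.420 RPKM, and Rplp2 had 0.520 and 0.618 RPKM, none past 1.5 times the median. Rpl5 and Rpl11 carry the 5S ribosomal RNA and, when unassembled, hold back Mdm2. At Rpl5 both signals were high, 0.816 RPKM (0.621 to 1.05) of KAT7 and 1.10 RPKM (0.877 to 1.36) of H3K14ac. Rpl11 had no island, and its gene body had 0.542 RPKM of each. Rps27a, whose protein is made as a fusion with ubiquitin, had no island either, and its body, which shares bases with Clhc1, had 0.590 and 0.520 RPKM. Fau, outside the naming rule, which makes a small subunit protein fused to a ubiquitin-like one, had 0.569 and 0.592 RPKM at an island shared with another start.

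Of the small subunit genes on the fixed lists, Rps3 had 0.604 RPKM of KAT7 and 0.788 RPKM of H3K14ac, and Rps14 had 0.607 and 0.803 RPKM. Rps19, whose human counterpart is mutated in Diamond-Blackfan anaemia, had 0.588 and 0.792 RPKM. Rps6, the substrate of S6 kinase, went the other way with 0.686 RPKM of KAT7 and 0.550 RPKM of H3K14ac, though its ratio of 1.25 had an interval of 0.912 to 1.71. Rps2 shares its island with Snhg9 and Snora78 and had 0.384 and 0.655 RPKM, a ratio of 0.586 (0.390 to 0.869).

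The subunits differed little at their start sites. The 32 large subunit islands had 0.644 RPKM of KAT7 in sum and the 24 small subunit islands 0.613 RPKM, a ratio of 1.05 (0.978 to 1.13). For H3K14ac the sums were 0.755 and 0.667 RPKM, a ratio of 1.13 (1.06 to 1.21). That excess did not hold in the medians, which were 0.701 RPKM in large and 0.714 RPKM in small subunit genes, a ratio of 0.982. It was 1.09 (1.02 to 1.16) without Rpl17, left out after its value was seen, and 1.05 (0.977 to 1.13) over genes with at most 5 annotated pseudogene copies. The KAT7 to H3K14ac ratio was 0.852 (0.801 to 0.906) in large and 0.919 (0.854 to 0.990) in small subunit genes.

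Pseudogene copies bear on these values, since ribosomal protein genes have more processed copies than most, and a read that matches both gene and copy cannot be placed with certainty. How the authors treated such reads is not stated. The annotation held 308 copies named by the symbol of one of these genes followed by -ps, and 63 of the 84 had at least 1. Copies under any other symbol were not counted, so a gene with few counted copies may have more. The 18 genes with over 5 were Rpl31 (24 copies), Rps12 (23), Rpl21 (15), Rpl7a (14), Rpl23a and Rps19 (13 each), Rpl19 and Rps2 (12 each), Rpl17 (11), Rpl30 and Rpl36 (10 each), Rpl9 (9), Rps15a (8), and Rpl10, Rpl13, Rpl26, Rpl35a and Rps18 (6 each). Their values are uncertain to that extent, although a copy lacks the introns and the promoter of its parent.

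Summed ratios were lower where copies were many, while the median genes hardly differed. The 11 measured islands of genes with over 5 copies had 0.625 RPKM of KAT7 and 0.847 RPKM of H3K14ac, a ratio of 0.738 (0.667 to 0.816). The 45 of genes with at most 5 had 0.632 and 0.683 RPKM, a ratio of 0.925 (0.876 to 0.975). The median ratios of single genes were 0.833 and 0.851, and the lowest 2 ratios, of Rpl17 and Rpl21, stand in the first set. Rpl19 and Rpl26 belong to it too, as do Rps12 and Rpl31 with ratios of 0.955 (0.552 to 1.64) and 0.939 (0.706 to 1.25). The part of the copies in the difference of the sums was not tested. Of the copies themselves, 26 had a gene body entry and 16 were measured, with medians of 0.424 RPKM for KAT7 and 0.398 RPKM for H3K14ac. The medians of all gene bodies were 0.399 and 0.381 RPKM, and their upper quartiles 0.424 and 0.405 RPKM.

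Gene bodies were measured for 49 of the 84 genes (31 large, 18 small subunit). Another 29 shared bases with a neighbouring or nested gene, 4 lay on the X chromosome and 2 were under the minimum of 0.1 RPKM, the mean of both columns. Summed over the 49, KAT7 stood at 0.525 RPKM (0.516 to 0.535), against 0.396 RPKM in 15725 other genes, a ratio of 1.33 (1.30 to 1.35). H3K14ac stood at 0.478 RPKM (0.470 to 0.487), against 0.388 RPKM, a ratio of 1.23 (1.21 to 1.26). The sums put the KAT7 excess first, but the medians turn the order, with 1.34 for KAT7 and 1.39 for H3K14ac, and Top ribosomal protein genes had 1.26 times the level of other Top genes in both signals. The KAT7 to H3K14ac ratio was 1.10 (1.07 to 1.13) in ribosomal protein genes, against 1.02 in all other genes and 1.10 in other Top genes. It was 1.19 in mitochondrial ribosomal protein, 1.23 in ribosome assembly and 1.15 in proteasome gene bodies.

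Ribosomal protein genes are short, with a median body of 3139 bases against 17641 in other genes, and in a short body the start region is a larger share. Against genes of the same mark and length band the median gene had 1.23 times their median KAT7 level and 1.24 times their median H3K14ac level, and 43 and 41 of 49 were above it. At least 1.5 times the median of all bodies was reached by 13 of 49 genes for KAT7 (26.5%, against 1.89% of all bodies) and by 12 for H3K14ac (24.5%, against 2.1%). At most 1/1.5 of it was seen in 1 gene for either signal, Rps9 (background 0.907% for KAT7 and 1.12% for H3K14ac). A level of 2 times the median was reached by Rps15 for KAT7 (background 0.811%) and by Rpl36 for H3K14ac (background 0.907%), and none fell to 1/2 of it (background 0.336% and 0.431%).

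**Figure D3:**
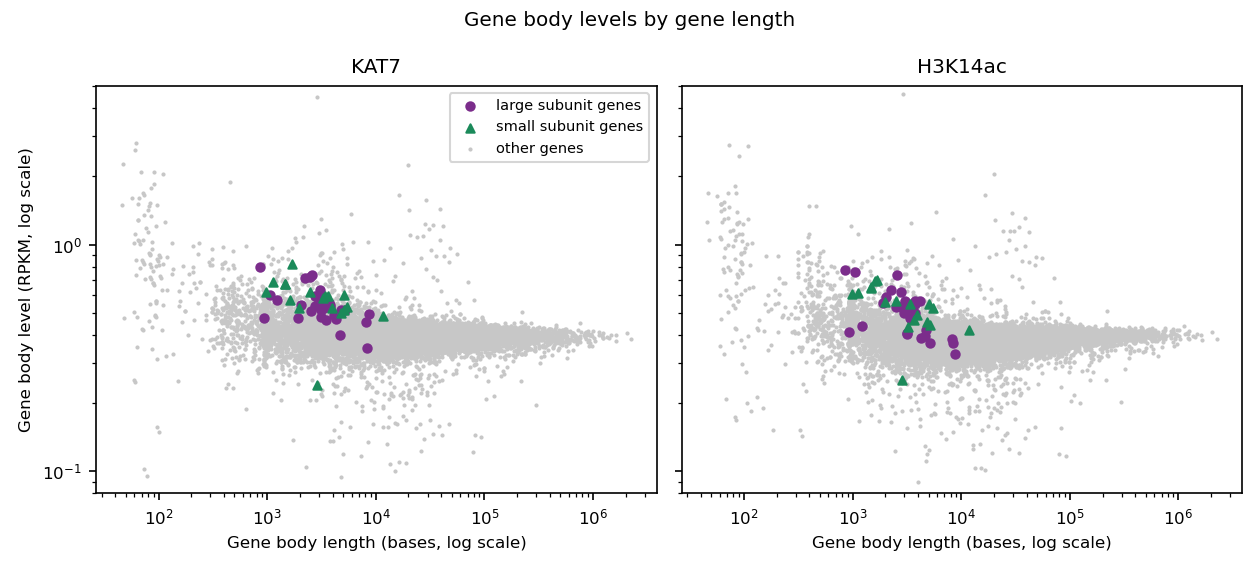
Gene body level (RPKM, vertical, log scale) of KAT7 (left) and H3K14ac (right) against gene body length (bases, log scale) for large subunit genes, small subunit genes and other genes. The 49 ribosomal protein genes lie at the short end, around a median of 3139 bases, and most sit above the centre of the grey cloud, with Rps9 below it in both panels.

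The highest gene bodies were those of Rps15 with 0.824 RPKM of KAT7 and 0.696 RPKM of H3K14ac, Rpl36 with 0.797 and 0.771 RPKM, and Rpl10a with 0.731 and 0.735 RPKM. Rpl7a came next for KAT7 with 0.721 RPKM but had 0.530 RPKM of H3K14ac, and Rpl41 was second for H3K14ac with 0.760 RPKM but had 0.599 RPKM of KAT7. Thus Rpl10a was high at both start and body, whereas Rpl41 had the lowest KAT7 of the 56 measured start-site islands. Start and body are not separate measurements, because a body holds the part of the island that lies after the start. The island of Rpl10a reaches 864 bases into a body of 2563 bases, and that of Rpl36 reaches 803 bases into 852. The lowest body was that of Rps9 with 0.240 RPKM (0.194 to 0.295) of KAT7 and 0.252 RPKM (0.205 to 0.306) of H3K14ac, although its island had 0.494 and 0.484 RPKM.

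The body ratio had a narrow range. It was lowest at Rpl41, 0.788 (0.588 to 1.05), Rps23, 0.828 (0.649 to 1.06), Rpl22l1, 0.858 (0.670 to 1.10), and Rpl21, 0.865 (0.734 to 1.02). It was highest at Rpl7l1, 1.5 (1.32 to 1.71), Rpl24, 1.41 (1.20 to 1.66), Rpl7a, 1.36 (1.12 to 1.65), and Rps6, 1.35 (1.12 to 1.63). Only Rpl7l1 was past 1.5 (background 1.13%) and none was at 1/1.5 or below (background 0.59%), nor was any past 2 (background 0.178%) or at 1/2 (background 0.165%). KAT7 was below H3K14ac in 15 of 49 bodies (30.6%), against 34.1% of all bodies. The interval lay wholly above 1 in 10 of 49 (20.4%), against 34.2% of all bodies, and wholly below 1 in none, against 9.06%. These shares set bodies of unequal length, and so of unequal read number, side by side.

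Between the subunits the bodies differed by a few percent, with 0.515 RPKM of KAT7 in large and 0.543 RPKM in small subunit genes, a ratio of 0.948 (0.913 to 0.983). For H3K14ac the values were 0.470 and 0.493 RPKM, a ratio of 0.955 (0.920 to 0.992). Neither difference held without the 6 measured paralogs (Rpl22l1, Rpl39l, Rpl3l, Rpl6l, Rpl7l1 and Rps27l), where the ratios were 1.00 (0.963 to 1.04) and 1.02 (0.978 to 1.06). With chromosome X included they were 0.982 (0.946 to 1.02) and 0.981 (0.945 to 1.02), and with no minimum RPKM 0.989 (0.953 to 1.03) and 0.996 (0.959 to 1.03). With regions that share bases kept, the KAT7 ratio was 0.975 (0.945 to 1.01), so the difference between the subunits depends on which genes are counted.

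The bodies of the 6 paralogs together had 0.446 RPKM of KAT7 and 0.396 RPKM of H3K14ac, but they differed among themselves. Rpl3l, the striated muscle form of Rpl3, had 0.351 RPKM (0.317 to 0.388) of KAT7 and 0.368 RPKM (0.334 to 0.404) of H3K14ac in its body. Rpl39l, the testis form of Rpl39, had 0.400 and 0.396 RPKM. The medians of all bodies were 0.399 and 0.381 RPKM, so KAT7 was below the median at Rpl3l and near it at Rpl39l. Their promoters, shown above, differ in letters: Rpl39l carries CCGGAA and CTTTCC and ATGGCG with 17 CpGs in its RefSeq promoter, whereas Rpl3l carries none of the motifs and 2 CpGs. The body of Rps27l, with 0.596 and 0.549 RPKM, was above the medians of all measured ribosomal protein gene bodies of 0.535 and 0.530 RPKM, and that of Rpl22l1 had 0.474 and 0.552 RPKM. Rpl22l1, a paralog of Rpl22, had 0.552 RPKM of KAT7 and 0.696 RPKM of H3K14ac at its island, against 0.611 and 0.729 RPKM at that of Rpl22. The island of Rps27l, which in human and mouse cells responds to p53, had 0.783 and 0.709 RPKM, against 0.412 and 0.488 RPKM at that of Rps27. The island of Rps27 held only 24 KAT7 and 30 H3K14ac reads. At the islands the KAT7 intervals of Rps27l (0.609 to 0.991) and Rps27 (0.264 to 0.614) overlapped only at their ends. The bodies did not repeat this order, since that of Rps27 had 0.616 and 0.604 RPKM, above Rps27l in both signals. Rps4l, typed as a pseudogene in the annotation, had 0.462 and 0.366 RPKM at its island, and Rpl6l, typed likewise, had 0.474 and 0.410 RPKM in its body.

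On the X chromosome, where the islands of other genes are lower too, Rps4x had 0.321 RPKM of KAT7 and 0.426 RPKM of H3K14ac at its island, and Rpl10, a core protein that forms part of the active site, had 0.318 and 0.167 RPKM. Rpl39 had 0.236 and 0.335 RPKM, and Rpl36a had 0.261 and 0.257 RPKM. These 4 islands together held 0.275 RPKM (0.204 to 0.363) of KAT7, against 0.254 RPKM in 218 other genes on X, and 0.287 RPKM (0.216 to 0.373) of H3K14ac, against 0.241 RPKM. Both intervals contain the value of the other genes on X.

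Nested genes took many bodies out of the comparison. Of the 84 genes, 31 (36.9%) shared bases with another gene body, against 19.7% of all genes, and 22 held 32 snoRNA genes between them. The 25 sharing genes that passed the minimum had medians of 0.525 RPKM for KAT7 and 0.444 RPKM for H3K14ac. At the start site the 16 measured host genes had 1.03 times (0.949 to 1.11) the KAT7 level and 1.02 times (0.947 to 1.09) the H3K14ac level of the 40 other ribosomal protein genes, a comparison added after the data were seen, and both intervals contain 1.

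In several genes the body held few or no reads in both columns. Rpl28, Rpl13, Rpl32l and Rps4l had 0 reads in either column, and for Rpl28 a count of 0 allows KAT7 up to 0.0174 RPKM by the exact interval. Yet the island at the start of Rpl28 held 62 KAT7 and 63 H3K14ac reads and reaches 684 bases into the gene, and that of Rpl13 held 79 and 82 reads. Rpl4, another protein lining the exit tunnel, had 0.0850 and 0.106 RPKM in the body. Rpl32l lies inside Map7, Rps4l inside Tmtc1, Rpl13 holds Snord68 and Rpl4 holds Snord16a, while no other gene body was found over Rpl28. The cause was not tested. These bodies enter no level summary above, except that Rpl28 enters the subunit ratios with no minimum RPKM.

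The 11 islands shared with another start had 0.594 RPKM of KAT7 and 0.657 RPKM of H3K14ac, a ratio of 0.904 (0.814 to 1.00). The partners included Nkiras1 for Rpl15, Sphk2 for Rpl18, Iqcg for Rpl35a, Med22 for Rpl7a, Lias for Rpl9, Vps52 for Rps18, Snhg9 and Snora78 for Rps2, Mir3091 for Rps21, Trappc4 for Rps25 and Ndufa7 for Rps28. Rps28 had the highest ratio, 3.02 (1.23 to 8.45), from 20 KAT7 and 7 H3K14ac reads on an island that ends 42 bases after the start.

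Along the gene the 2 signals followed different courses. In 20 plus-strand genes measured in all 4 windows, KAT7 was 0.423 RPKM in the promoter window upstream, 0.662 RPKM at the island, 0.536 RPKM in the body and 0.446 RPKM after the transcription end site (TES). H3K14ac was 0.334, 0.792, 0.504 and 0.350 RPKM in the same windows. H3K14ac was therefore more concentrated at the start, and the KAT7 to H3K14ac ratio went through 1.27 (1.19 to 1.35), 0.836 (0.773 to 0.902), 1.06 (1.02 to 1.11) and 1.27 (1.20 to 1.35). KAT7 was below H3K14ac in 1 of the 20 genes upstream, 13 at the island, 8 in the body and 3 after the end. The medians of all gene bodies were 0.399 RPKM for KAT7 and 0.381 RPKM for H3K14ac. No background level was available, so how much of the signal upstream and after the end is background was not tested.

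Other genes showed a flatter course. In 227 other Top genes with all 4 windows the ratio was 1.08, 0.977, 1.10 and 1.16, and in all 3260 other genes it was 1.13, 1.05, 1.04 and 1.09. The intervals of the ribosomal protein genes lay outside those of the other Top genes in the promoter (1.19 to 1.35 against 1.06 to 1.10), at the island (0.773 to 0.902 against 0.955 to 1.00) and after the end (1.20 to 1.35 against 1.14 to 1.19). Over all plus-strand genes with a measured window, whether or not the others were measured, 37 ribosomal protein promoters had a ratio of 1.19 (1.14 to 1.24) and 41 windows after the end had 1.26 (1.21 to 1.31), against 1.08 and 1.06 in other genes.

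**Figure D4:**
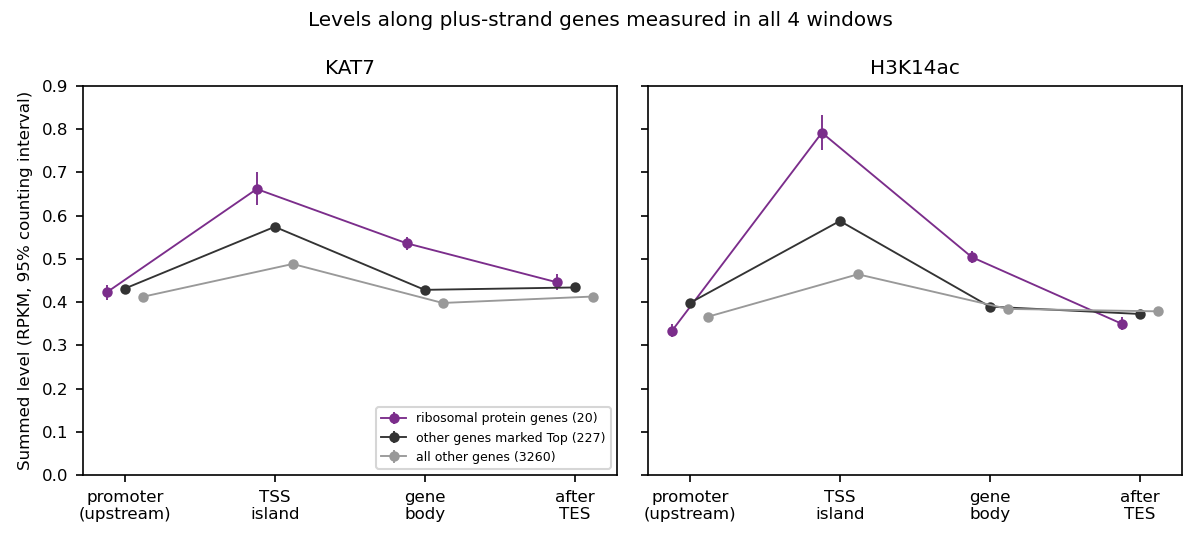
Summed level (RPKM, with 95% counting intervals) of KAT7 (left) and H3K14ac (right) in 4 windows along plus-strand genes, for 20 ribosomal protein genes, 227 other genes marked Top and 3260 other genes. The ribosomal protein genes peak at the island in both panels, more steeply for H3K14ac, which is the lowest of the 3 groups upstream (0.334 RPKM) and the highest at the island (0.792 RPKM).

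Within genes the same order held: of 33 genes measured in both places, the island was above the body in 27 for H3K14ac (median ratio 1.31) and in 23 for KAT7 (median ratio 1.16). The body includes the part of the island after the start. Just before the start the balance was the reverse of that in the island. In the 250 bases upstream, 5 short elements of ribosomal protein genes held 51 KAT7 and 19 H3K14ac reads, 0.507 RPKM (0.378 to 0.667) and 0.179 RPKM (0.108 to 0.279), a ratio of 2.84 (1.65 to 5.09). In 66 such elements of other Top genes the ratio was 2.05 (1.80 to 2.32), so the intervals overlap. An element of at most 160 bases is raised in RPKM by reads that reach over its edges, in both columns.

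The share of an island that lies after the start went with its level. Over the 56 genes Spearman's rho was 0.535 with H3K14ac and 0.417 with KAT7, against 0.202 and 0.201 over 7923 islands. It was 0.676 and 0.442 in the 32 large subunit genes, and lower, 0.328 and 0.323, in the 24 small subunit genes. KAT7 and H3K14ac themselves had a rho of 0.558 and a Pearson r of 0.474 over the 56 genes. Over all islands rho was 0.449 and Pearson r 0.461, so the 2 sets differed in rho and hardly in r. These points share their 2 columns and the islands' base composition and length, and they are descriptions. Rpl17 and Rpl10a, with 519 and 864 bases after the start and 50 and 40 before it, are examples of islands that lie almost wholly inside the gene. The island of Rpl10a lies at chr17:28328431-28329335 and that of Rpl5, with 63 bases before and 476 after its start, at chr5:107900465-107901004 (mm10).

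Compared with other machinery of growing cells, the cytosolic ribosomal protein genes stood higher against each list in H3K14ac than in KAT7. The lists were not matched on the expression mark. Among genes outside the rule, Top islands had 0.585 RPKM of H3K14ac and islands marked Other 0.459 RPKM. What the mark adds to these ratios was not tested. Genes for mitochondrial ribosomal proteins, which build the separate ribosome of that organelle, had 0.567 RPKM of KAT7 and 0.493 RPKM of H3K14ac over 42 islands. The cytosolic genes stood at 1.11 times (1.05 to 1.18) that KAT7 level and 1.46 times (1.37 to 1.55) that H3K14ac level. Against 24 proteasome islands the ratios were 1.14 (1.06 to 1.23) and 1.21 (1.13 to 1.30), and against 9 islands of ribosome assembly genes such as Fbl, the rRNA methyltransferase, they were 1.12 (1.02 to 1.24) and 1.48 (1.34 to 1.63). The KAT7 and H3K14ac intervals overlap in the proteasome comparison and not in the other two. Islands at 1.5 times the median or more numbered 6 for KAT7 and 6 for H3K14ac of the 42 mitochondrial, 2 and 7 of the 24 proteasome, 0 and 1 of the 9 assembly genes, and 4 and 3 of the 13 translation genes described next. Over all islands the shares were 7.19% for KAT7 and 13.8% for H3K14ac.

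In summed KAT7 level the closest of these lists was that of 13 translation genes outside the naming rule whose mRNAs also start with a pyrimidine tract. Cytosolic ribosomal protein genes had 0.998 times (0.927 to 1.08) their KAT7 level and 1.19 times (1.11 to 1.28) their H3K14ac level. Eef1a1, an elongation factor, had 0.904 RPKM of KAT7 and 0.952 RPKM of H3K14ac, and Naca, of the nascent chain complex, had 0.773 and 0.896 RPKM, which is the range of the higher ribosomal protein genes. Eef2 had 0.809 and 0.636 RPKM, Rpsa, a small subunit protein with a name outside the rule, had 0.517 and 0.660 RPKM, and Rack1, which sits on the small subunit, had 0.679 and 0.580 RPKM. Nap1l1 stood at the other end of the ratio with 0.582 and 0.304 RPKM, 1.91 (1.26 to 2.94). The KAT7 to H3K14ac ratio was 0.879 (0.838 to 0.921) in cytosolic ribosomal protein genes, 1.05 (0.955 to 1.15) in the 13 translation genes, 1.15 (1.07 to 1.24) in mitochondrial ribosomal protein genes, 1.15 (1.02 to 1.31) in assembly genes and 0.931 (0.850 to 1.02) in proteasome genes.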

How the data were processed

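The deposited table, made by the authors, gives for each of 240814 mm10 regions in 12 classes a read count and an RPKM value in 1 merged KAT7 and 1 merged H3K14ac column, per the file headers. Per the submitters' processing notes Bowtie2, SAMtools, Picard, deepTools and featureCounts were among the tools, with no version or order stated. The deposited RPKM is the count over the region's end minus start and over a read total of 134111848 for KAT7 and 141734087 for H3K14ac. The sources used here do not say which libraries were merged or what SC and gc in the column names mean.

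Symbols came from RefSeq GRCm38.p6 by gene identifier (96.7% of genes matched). Autosomal regions sharing no base with another of their class, at most 5 RPKM and with a mean RPKM of at least 0.1 were used, and islands holding exactly 1 start. Group levels are summed counts over summed length with exact Poisson intervals, and ratios carry exact binomial (Clopper-Pearson) intervals, both for counting error only and tested on simulated data. A region was counted as high or low past 1.5-fold of its class median, or of 1 for the KAT7 to H3K14ac ratio. Genes named are the 4 highest and 4 lowest measured members for each signal and their ratio, genes left out by an exclusion, and fixed lists of roles; some of these are not reported here. Genes outside that rule in the text (single examples of other lists, shared islands, and genes given for their copies or intervals) were picked after their values were seen. The members and lists were chosen with earlier results of these data known. Python 3.11.15, pandas 2.3.3 and SciPy 1.17.1 were used.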

Additional observations from a re-analysis of the deposited data

How the results depend on the processing

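No paired analysis was possible because the values are 1 merged column per antibody, and leaving out a replicate was not possible for the same reason. Counting error limits single islands, many of which hold fewer than 100 reads a column.

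With summed reads divided by the sum that genes of the same expression mark and length band would give, in which long regions weigh more than in the median of single-gene ratios given above, the excess of ribosomal protein genes was 1.22 for KAT7 and 1.38 for H3K14ac at islands, and 1.14 and 1.15 in gene bodies. With medians of single regions, the large to small subunit ratio at islands was 0.936 for KAT7 and, below 1, 0.982 for H3K14ac, the H3K14ac excess in bodies was 1.39, above that of KAT7 (1.34), and the large to small ratio of KAT7 in bodies was 0.903. With genes of at most 5 pseudogene copies, the H3K14ac excess at islands was 1.46, the large to small ratio of H3K14ac at islands 1.05 and the KAT7 to H3K14ac ratio at islands 0.925. In bodies the excesses were then 1.30 (KAT7) and 1.21 (H3K14ac) and the large to small ratios 0.906 and 0.882. With no minimum RPKM the body excesses were 1.29 and 1.20 and the large to small ratios 0.989 and 0.996. Without the paralogs the body excesses were 1.37 and 1.28, and the large to small ratios turned to 1.00 and 1.02. The cause of these shifts was not tested. At a fold of 2 in place of 1.5, the counts of genes past the fold at islands were 1 for high KAT7, 10 for high H3K14ac, 2 for a low ratio and 0 for a high ratio, and in bodies 1 for high KAT7, 1 for high H3K14ac and 0 for a high ratio.

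Every value stayed within its counting interval with chromosome X or regions that share bases included (10 results each). The same held with islands of more than 1 start (5 results) and without Rpl17 (2 results). At islands, keeping regions that share bases left every value identical to the main one, so that setting bore on the body results only. The large to small ratios in bodies lost their distance from 1 with chromosome X (0.982 for KAT7, 0.981 for H3K14ac) and, for KAT7, with shared bases (0.975). Dividing each of the 56 island ratios by the median ratio of all islands (1.07) lowered all of them by the same factor. Each stayed within its counting interval, but the intervals are wider than that shift, so this could not test the ratios. Some ratios just above 1 fell below it, such as those of Rpl8 (1.04 to 0.974) and Rpl28 (1.04 to 0.970). Those of Rpl19 (0.713 to 0.665) and Rpl34 (0.709 to 0.662) were among the ratios that passed the limit for a low ratio (0.667).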
